A study of Mus musculus with 12 samples.

Results

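Pomc, the proopiomelanocortin gene, and GFP, the ribosome tag, are the 2 rows followed here among the 19878 genes of one count table. They were chosen by name, because the Cre line that switches on the tag is driven by Pomc sequence and the beads that isolate the ribosomes bind GFP. All mice carried Pomc-CreERT2 and Rosa26-eGFPL10a on a C57BL/6 background, and all received tamoxifen on consecutive days that ended shortly before collection, with a shorter wait at postnatal day 12 (P12) than at postnatal day 60 (P60). The arcuate nucleus was cut from brain slices, the lysate was passed over anti-GFP beads, and the bound RNA (pull-down) and the remaining RNA (supernatant) were sequenced. This gave 4 groups of 3 libraries: P12 pull-down, P12 supernatant, P60 pull-down and P60 supernatant.

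POMC is a prohormone that neurons of the arcuate nucleus cut into melanocortin peptides, which lower food intake, and into the opioid beta-endorphin. The same gene is expressed in corticotrophs and melanotrophs of the pituitary. In translating ribosome affinity purification (TRAP-seq), a ribosomal protein fused to GFP is expressed in 1 kind of cell, so that the RNA on its ribosomes can be pulled out of a mixed lysate. GFP reads in these libraries come from the messenger RNA of the tag, not from the tagged protein. The tag marks cells in which Cre was active when tamoxifen was given, whatever they expressed at collection. No untagged or Cre-negative libraries were analysed here, so the binding of untagged RNA to the beads was not measured. Whether mice were pooled within a library is not given in the sources used here.

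Mouse Pomc lies on chromosome 12 from 3954951 to 3960642 on the plus strand (mm10, GENCODE), with a merged exonic length of 1318 bases. GFP has no mouse coordinates and no annotated length in the sources used here, so the ratio of Pomc to GFP reads given further on is compared between libraries and does not say which of the 2 transcripts was more abundant. The 250 bases before the Pomc start are shown because the arcuate regulators described further on are transcription factors with short recognition motifs, and because Pomc sequence drives the Cre. They run at chr12:3954695-3954944 on the plus strand (GRCm38.p6, RefSeq), and capitals mark the motif matches named after the sequence.

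Pomc promoter: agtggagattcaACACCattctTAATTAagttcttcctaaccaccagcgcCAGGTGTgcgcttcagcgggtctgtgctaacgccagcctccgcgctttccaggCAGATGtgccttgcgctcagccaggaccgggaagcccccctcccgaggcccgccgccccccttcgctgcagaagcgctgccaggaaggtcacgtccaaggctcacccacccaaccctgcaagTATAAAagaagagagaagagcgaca

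Motifs were searched on both strands. A TATA box (TATAAA) begins 25 bases before the start, and 13% of 27025 RefSeq promoter windows of the same length hold one. An E-box (CANNTG), the motif of helix-loop-helix factors, matched 2 times, as it did at least once in 66.0% of windows. The homeodomain core TAAT, read by factors of the Isl1 kind, matched once on each strand within 1 stretch of overlapping letters, and 55.3% of windows hold it. The T-box half-site GGTGT matched once on each strand, and its plus-strand match overlaps an E-box. It occurs in 36.2% of windows. The NKX core CAAGTG was not among these letters and is in 11.6% of windows. These matches describe the letters of the window only, and arcuate expression of Pomc is known to depend on enhancers far outside it.

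The depth of the P12 libraries was 6305778 to 19814679 counted reads for pull-downs and 23785154 to 35249290 for supernatants. The P60 libraries had 10791980 to 18774445 and 16143825 to 22422476 counted reads. P12 pull-down 1 had the lowest total. Each value below is a read count or CPM, the count scaled to a common library total. The study describes 3 independent experiments, while the labels do not say that libraries of a group came from separate animals, in which case p-values measure only the spread between these libraries.

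Pomc differed far more between groups, and between libraries of some groups, than GFP did. In the P60 pull-downs 1, 2 and 3, Pomc had 42418, 47493 and 48671 reads, or 3077, 2530 and 4510 CPM. In the P60 supernatants the values were 445, 412 and 974 reads, or 26.1, 18.4 and 60.3 CPM. Pull-down and supernatant libraries at P60 did not overlap, and replicate 3 was the highest in both fractions.

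The P12 libraries held far less Pomc. The 3 P12 pull-downs had 62, 394 and 1619 reads, or 9.83, 21.9 and 81.7 CPM, a span of 8.31-fold. The P12 supernatants had 188, 248 and 330 reads, or 7.90, 7.71 and 9.36 CPM. P12 pull-down 1 lay close to the supernatants: its count gives 9.83 CPM with a 95% Poisson interval of 7.54 to 12.6, and supernatant 1 gives 7.90 CPM with an interval of 6.82 to 9.12. Intervals of this kind cover counting error only.

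GFP was highest in the P60 pull-downs, at 256, 152 and 184 CPM (3533, 2861 and 1987 reads). The P12 pull-downs had 77.1, 39.4 and 55.8 CPM (486, 709 and 1106 reads). The supernatants had 39.3, 28.4 and 28.9 CPM at P12 and 26.2, 27.1 and 18.2 CPM at P60. GFP was thus read in every supernatant, with at least 294 reads in each. Replicate 1 had the highest GFP of the pull-downs at both ages, and replicate 3, which had the most Pomc in both P60 fractions, had the least GFP in the P60 supernatant.

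**Figure D1:**
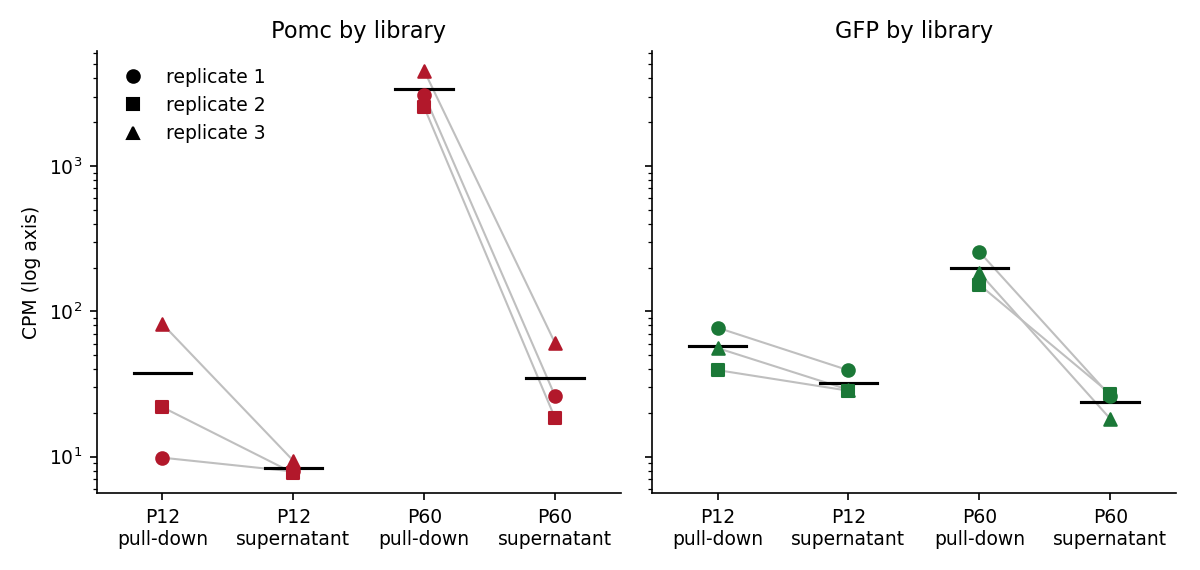
Pomc (left) and GFP (right) in each library, in CPM on a log axis, by group. Symbols are replicates 1 to 3, grey lines join the pull-down and supernatant of one number, and black bars are group means. Pomc spans 7.71 to 4510 CPM and GFP 18.2 to 256 CPM, and the 3 P12 pull-downs are spread widely for Pomc but not for GFP.

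Ordered by level, Pomc was highest in the P60 pull-down, then in the P12 pull-down and the P60 supernatant, whose libraries overlap (9.83 to 81.7 and 18.4 to 60.3 CPM), and lowest in the P12 supernatant. For GFP the order was P60 pull-down, P12 pull-down, P12 supernatant and P60 supernatant. The lowest P12 pull-down and the highest P12 supernatant were nearly equal, at 39.4 and 39.3 CPM. Among 19538 genes with an exonic length, ranked by reads per kilobase within a library, Pomc was 2nd, 2nd and 1st in the P60 pull-downs. It ranked 5017, 2326 and 483 in the P12 pull-downs, 6642, 6561 and 5832 in the P12 supernatants, and 2535, 3458 and 882 in the P60 supernatants.

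The spread of Pomc between replicates depended on the group. On a log2 scale the SD over the 3 P12 pull-downs was 1.51 for Pomc and 0.48 for GFP, beside a median of 0.59 over 15311 genes, and 13.9% of genes had a larger SD than Pomc. In the P60 supernatant the SD of Pomc was 0.87 against a median of 0.13, and 0.144% of genes had a larger one. In the P60 pull-down and the P12 supernatant Pomc varied about as much as the median gene, with SDs of 0.42 and 0.14 beside medians of 0.41 and 0.14. P12 pull-downs 1 and 3 set the first of these spreads and P60 supernatant 3 the second.

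The first comparison asks how far the tagged ribosomes held Pomc above the rest of the lysate. In P60 pairs 1, 2 and 3, the pull-down exceeded the supernatant in Pomc CPM by 118-fold (95% count interval 107 to 130), 138-fold (125 to 152) and 74.8-fold (70.2 to 79.7). The fit gave a log2 fold change of 6.96 ± 0.19 (SE), or 124-fold with a 95% interval of 94.9 to 162 (edgeR, adjusted p = 9.42e-27). This was the highest fold change and the lowest p of 14444 genes tested, where 7.11% of genes were called higher. In bulk libraries, fewer cells of a type and less RNA per cell cannot be told apart.

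At P12 the Pomc pairs disagreed on size. Pomc was 1.24-fold (0.918 to 1.67), 2.84-fold (2.42 to 3.34) and 8.73-fold (7.75 to 9.85) higher in pull-downs 1, 2 and 3 than in their supernatants, and the interval of the first pair includes no difference. The fit gave 2.01 ± 0.53, or 4.03-fold with an interval of 1.85 to 8.77 (edgeR, adjusted p = 0.0248), and ranked Pomc 137th by fold change among 14852 genes, of which 6.28% were called higher. Without pair 3 the log2 fold change was 1.26 (adjusted p = 0.606), and without pair 1 it was 2.69. Without the replicate number as a block it was 2.56 (adjusted p = 0.0702), and with scaling by library size alone 1.66 (adjusted p = 0.0577).

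GFP rose in the pull-down at both ages, and in every pair. At P60 its CPM was 9.80-, 5.63- and 10.1-fold higher, with a fitted 9.58-fold difference (7.46 to 12.3; log2 3.26 ± 0.18, edgeR adjusted p = 3.04e-17), 15th by fold change. At P12 it was 1.96-, 1.39- and 1.94-fold higher, with a fitted 2.22-fold difference (1.46 to 3.36; log2 1.15 ± 0.28, adjusted p = 0.0166), 689th by fold change. The fit scales libraries by TMM rather than by total count. Scaled by TMM over all libraries, the P12 pairs were 2.51-, 1.84- and 2.44-fold. The P12 call for GFP was lost without pair 3 (log2 1.07, adjusted p = 0.0732) and with scaling by library size alone (0.80, adjusted p = 0.0834).

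Both genes were more enriched at P60 than at P12, by a test of the difference itself over all 12 libraries. For Pomc the difference of enrichment was 4.80 ± 0.41 on the log2 scale, or 27.9-fold with an interval of 15.4 to 50.5 (edgeR, adjusted p = 4.85e-07). For GFP it was 2.08 ± 0.29, or 4.23-fold with an interval of 2.81 to 6.38 (adjusted p = 0.000295). By p they were 2nd and 13th of 15311 genes, and by the size of the difference 303rd and 1334th. In this direction 0.438% of genes were called. Leaving out P12 pair 3 gave 5.65 for Pomc, and leaving out P12 pair 1 gave 4.23.

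**Figure D2:**
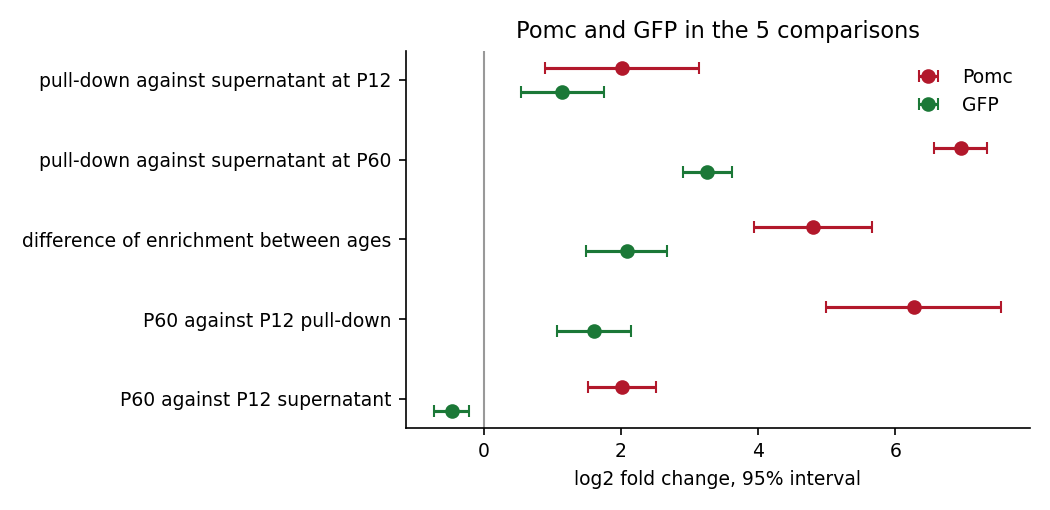
Log2 fold changes of Pomc (red) and GFP (green) in the 5 comparisons, with 95% intervals derived from the edgeR F statistic. Every Pomc interval lies above 0, from 2.01 at P12 to 6.96 at P60, and the GFP value for the supernatants of the ages, at -0.46, is the lowest.

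Set against age within a fraction, Pomc rose in both. In the pull-down it was higher at P60 by 6.27 ± 0.60 on the log2 scale, or 77.2-fold with an interval of 31.9 to 187 (edgeR, adjusted p = 2.69e-05), where 1.89% of 13570 genes were called higher. Without P12 pull-down 3 the value was 7.55. In the supernatant it was 4.04-fold higher at P60 (2.87 to 5.68, adjusted p = 5e-08), where 20.9% of 15251 genes were called higher. P60 supernatant 3 raised this value, and without it the log2 fold change was 1.35 (adjusted p = 6.97e-08).

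GFP moved in opposite directions in the fractions. It was 3.05-fold higher at P60 in the pull-down (2.09 to 4.44; log2 1.61 ± 0.26, edgeR adjusted p = 0.00152). In the supernatant it fell by 0.46 ± 0.12 on the log2 scale, to 0.725 of the P12 level (0.607 to 0.864, adjusted p = 0.00313), where 20.8% of genes were called lower. The wait from tamoxifen to collection was shorter at P12, and age and that wait cannot be told apart.

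The ratio of Pomc to GFP reads within a library compares the 2 transcripts with no scaling by depth. The P12 pull-downs 1, 2 and 3 held 0.128, 0.556 and 1.46 Pomc reads per GFP read, and the P60 pull-downs 12.0, 16.6 and 24.5. The P12 supernatants held 0.201, 0.271 and 0.325, and the P60 supernatants 0.998, 0.679 and 3.31. The ages did not overlap in either fraction, and replicate 1 of the P12 pull-down was the only pull-down whose ratio lay below that of its own supernatant.

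The mean log2 ratio was higher at P60 by 5.17 in the pull-down (36.1-fold) and by 2.33 in the supernatant (5.02-fold). In both fractions the two-sided exact permutation p was 0.1 (0.167 adjusted over 5 comparisons of the ratio), the smallest that 3 against 3 libraries allow. From supernatant to pull-down the ratio rose by 0.85 at P12 (1.80-fold, exact permutation p = 0.5) and by 3.70 at P60 (13-fold, exact permutation p = 0.25, the smallest that 3 pairs allow). The P60 pairs exceeded the P12 pairs by 2.85 (7.19-fold, exact permutation p = 0.1). Leaving out 1 replicate moved these values. The pull-down difference between ages was 4.23 without P12 replicate 1 and 5.99 without P12 replicate 3, and the supernatant difference was 1.66 without P60 replicate 3. The P12 pair value was 1.60 without replicate 1 and 0.19 without replicate 3, and the excess of the P60 pairs was 2.09 without P12 replicate 1 and 3.51 without P12 replicate 3. None of these comparisons could reach the threshold of 0.05 in this design.

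**Figure D3:**
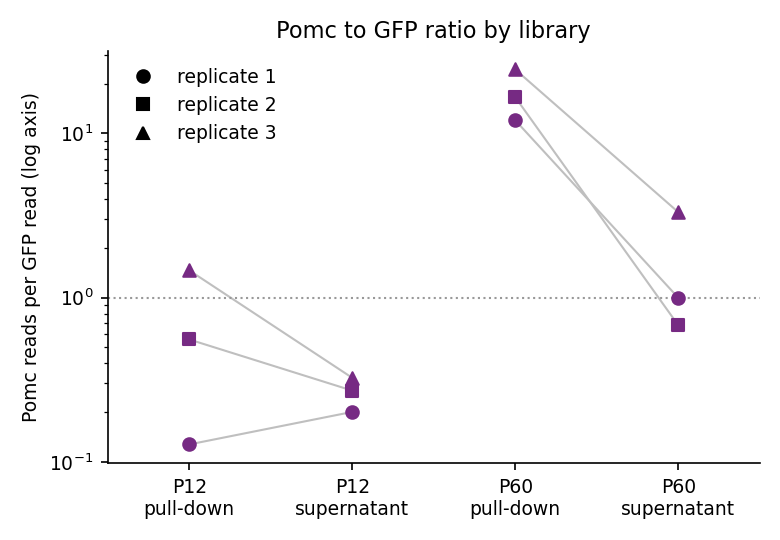
Pomc reads per GFP read in each library, on a log axis, by group. Symbols are replicates, grey lines join the libraries of a pair, and the dotted line marks 1 Pomc read per GFP read. The P60 pull-downs lie at 12.0 to 24.5, and the P12 pull-downs run from 0.128 to 1.46.

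The rank of the P12 pull-downs by Pomc was not shared by Cartpt, Prdm12 or Tbx3, genes of POMC neurons. Cartpt, which encodes a peptide that many arcuate POMC neurons coexpress, had 13.3, 25.5 and 9.79 CPM in P12 pull-downs 1, 2 and 3, so the library richest in Pomc was the poorest in Cartpt. Prdm12, a zinc finger factor needed for Pomc expression, had 0.317, 3.22 and 0.656 CPM in the same libraries. Tbx3, a T-box factor of arcuate peptide neurons, had 11.3, 30.7 and 18.9 CPM.

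Agrp, the peptide of the neighbouring neurons that oppose POMC neurons, had 16.2, 9.16 and 0.0505 CPM in the P12 pull-downs, the reverse of the order of Pomc. A single Agrp read was counted in P12 pull-down 3. Npy, the other peptide of those neurons, did not share that reversed order: it had 9.83, 8.66 and 18.3 CPM and was highest where Pomc was highest. The P60 pull-downs had 1047, 881 and 1002 CPM of Cartpt, 116, 70.6 and 59.8 CPM of Prdm12 and 145, 133 and 135 CPM of Tbx3. Each was called higher in the P60 than in the P12 pull-down by edgeR, where 1.89% of all genes were. Agrp had 1.09, 13.2 and 0.834 CPM at P60, overlapped its P12 range and was not called (edgeR, adjusted p = 0.83).

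**Figure D4:**
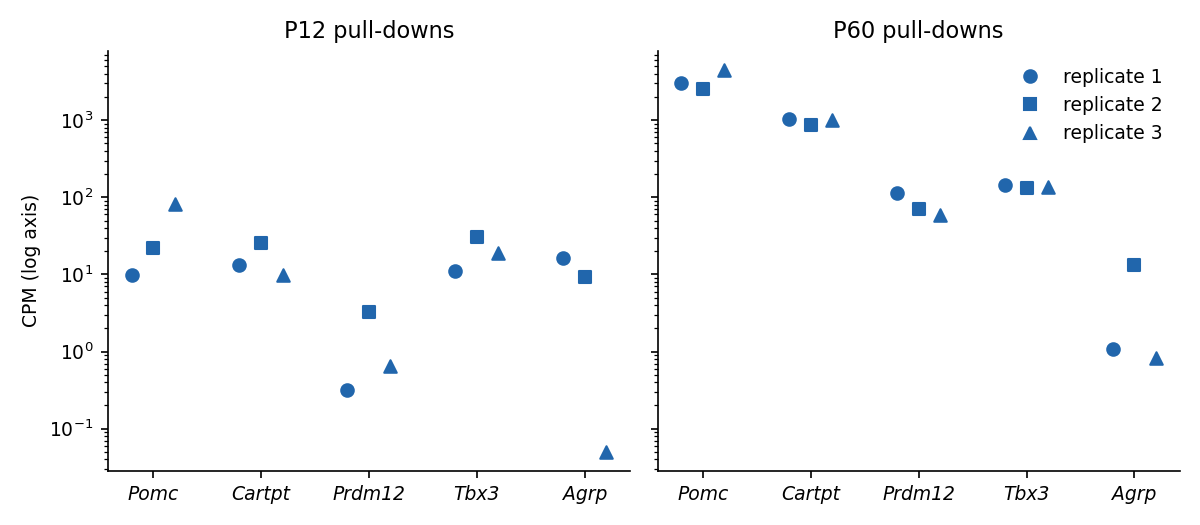
Pomc, Cartpt, Prdm12, Tbx3 and Agrp in the 3 pull-downs of P12 (left) and of P60 (right), in CPM on a log axis shared by the panels. Each symbol is 1 library. Pomc is highest in P12 pull-down 3, where Cartpt is 9.79 CPM and Agrp 0.0505 CPM.

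Of 10 known regulators of Pomc or of POMC neuron identity, 9 were tested. Prdm12 and Tbx3 were more enriched at P60 than at P12, by 6.40 ± 0.67 (log2, SE; edgeR, adjusted p = 6.65e-06) and 2.36 ± 0.40 (adjusted p = 0.00222), and the other 7 were not called, where 0.438% of all genes were called higher. The same 2 of 9 were higher in the P60 than in the P12 pull-down, by 5.55 and 2.57, where 1.89% were. In the P60 pull-down against its supernatant 3 of 9 were called higher by edgeR (7.11% of all genes). They were Prdm12 by 4.14 ± 0.24 (adjusted p = 3.36e-16), Tbx3 by 2.92 ± 0.18 (2.4e-15) and Stat3. Neither Prdm12 nor Tbx3 was called higher in the pull-down at P12 itself. There Prdm12 stood at -2.60 ± 1.41 (edgeR, adjusted p = 0.355) and Tbx3 at 0.51 ± 0.51 (adjusted p = 0.662). Prdm12 had 2, 58 and 13 reads in the P12 pull-downs (0.317 to 3.22 CPM), against 6.55 to 8.02 CPM in the P12 supernatants. The median of the 9 differences of enrichment was 0.47, beside 0.04 over all genes tested. Without P12 pair 2 the difference of Prdm12 was 7.43, and without P12 pull-down 2 its age difference in the pull-down was 7.03.

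Stat3, which carries the leptin signal to Pomc, exceeded the supernatant by 1.33 ± 0.16 in the P60 pull-down (edgeR, adjusted p = 6.6e-08) and by 0.83 ± 0.22 in the P12 pull-down (adjusted p = 0.0285). The P12 call was lost when any 1 of the 3 pairs was left out (adjusted p 0.0517 to 0.119), with library size alone (0.48, adjusted p = 0.191) and with length-dependent offsets (0.70, adjusted p = 0.0997). In the supernatants, 1 regulator was higher at P60 (Nr3c1) and 5 of 9 were lower, where 20.9% of all genes were called higher and 20.8% lower. Isl1, a homeodomain factor that binds Pomc enhancers, fell by 0.61 ± 0.10 (adjusted p = 9.16e-06). Nr4a1, an activity-induced factor, stood at -0.60 ± 0.20 (adjusted p = 0.0167), a call lost by DESeq2 (0.305) and without P12 supernatant 1 (0.129), P60 supernatant 2 (0.18) or P60 supernatant 3 (0.0882). Without P60 supernatant 1 its value was -1.11. Prdm12 and Nhlh2 were the next by size.

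The 8 genes that cut, trim or amidate POMC peptides, or regulate the enzymes that do, moved little beside Pomc. None was called at P12, where 6.28% of all genes were called higher, and 3 were higher in the P60 pull-down, where 7.11% were: Pcsk1, the first convertase to cut POMC, by 0.93 ± 0.26 (edgeR, adjusted p = 0.0149), Ctsl, a protease, by 0.76 ± 0.23 (adjusted p = 0.0226), and Pcsk1n, which encodes an inhibitor of that convertase, by 0.63 ± 0.14 (adjusted p = 0.000961). Their list median was 0.28, beside -0.10 over all genes. All 3 calls were lost without pair 3 (adjusted p 0.174, 0.21 and 0.085), the Pcsk1 call also without pair 2 (0.136) and the Ctsl call also without pair 1 (0.163). Pcsk1 (adjusted p = 0.068) and Ctsl (0.12) were also not called when scaled by library size alone, nor with all 12 libraries in 1 fit (0.309 and 0.25), and leaving out the block lost Ctsl (0.0617). None of the 8 was called in the difference of enrichment between the ages, where 0.438% of all genes were called higher. Pcsk1 stood at 1.39 ± 0.61 (edgeR, adjusted p = 0.401) and Ctsl at 1.09 ± 0.46 (adjusted p = 0.369). The list median there was 0.51, beside 0.04 over all genes.

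Between ages, 2 of the 8 were higher in the P60 pull-down (1.89% of all genes), Pcsk1n by 1.11 ± 0.19 (edgeR, adjusted p = 0.00283) and Pam, the amidating enzyme, by 1.03 ± 0.25 (adjusted p = 0.0256). The Pam call was lost when any 1 P60 pull-down was left out. In the supernatants 6 of 8 were higher at P60 and 0 lower, where 20.9% of all genes were called higher and 20.8% lower. The largest was Prcp, a peptidase that inactivates alpha-MSH, by 0.85 ± 0.24 (adjusted p = 0.00474, and 0.0853 without P60 supernatant 2). It was followed by Pcsk1n, by 0.61 ± 0.07 (adjusted p = 3.6e-08), Pam by 0.53 ± 0.07 (adjusted p = 8.22e-07) and Pcsk1 by 0.42 ± 0.12 (adjusted p = 0.00715). The list median there was 0.36, beside 0.00 over all genes.

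Of 9 arcuate peptide genes tested, 2 were more enriched at P60 than at P12, beside 0.438% of all genes: Cartpt by 4.75 ± 0.32 (edgeR, adjusted p = 6.06e-09), and Gal, which encodes galanin, by 3.69 ± 0.43 (adjusted p = 2.56e-05). With length-dependent offsets these values were 3.97 for Cartpt and 2.68 for Gal, and 4.07 for Pomc. In the P60 pull-down itself 3 of 9 were called higher by edgeR (7.11% of all genes). They were Cartpt by 4.58 ± 0.16 (adjusted p = 5.5e-23), Gal by 2.59 ± 0.19 (3.1e-13) and Pdyn by 2.24 ± 0.36 (1.82e-05). Sst (-0.62, adjusted p = 0.0139) and Penk (-0.70, 0.0459) were lower there, where 655 of 14444 genes were called lower. At P12 itself neither Cartpt (-0.23 ± 0.51, edgeR adjusted p = 0.85) nor Gal (-1.18 ± 0.62, adjusted p = 0.338) was called higher in the pull-down. They were also the 2 that were higher in the P60 than in the P12 pull-down (1.89% of all genes), by 5.73 and 3.49 (4.08 for Gal without P12 pull-down 3). In the supernatants Cartpt was higher at P60 by 1.06 ± 0.12 (adjusted p = 2.24e-08) and Tac2, which encodes neurokinin B, by 1.29 ± 0.19 (adjusted p = 1.91e-06), and 0 of 9 were lower, where 20.9% of all genes were called higher and 20.8% lower. Of the receptors for POMC peptides, their accessory proteins and the antagonist Agrp, 7 or 8 were tested in each comparison by edgeR and 0 were called in any of the 5. Of all genes, 6.28% were called higher in the P12 pull-down, 7.11% in the P60 pull-down and 0.438% in the difference of enrichment. Between the ages, 1.89% were called higher and 3.11% lower in the pull-downs, and 20.9% higher and 20.8% lower in the supernatants.

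The pituitary also makes Pomc, so its markers were read in the same libraries. The 6 hormone genes Gh, Prl, Tshb, Lhb, Fshb and Cga summed to 0, 2.02 and 0.927 CPM in the P60 pull-downs and to 1.41, 1.74 and 1.61 CPM in their supernatants. Pomc was at 2530 to 4510 CPM in those pull-downs. These hormones mark pituitary cells other than those that make Pomc, so their sum does not measure pituitary Pomc cells. The whole list of 13 pituitary markers summed to 7.97 to 12.0 CPM in the P60 pull-downs, 8.15 to 10.4 in the P60 supernatants, 2.70 to 13.6 in the P12 pull-downs and 4.66 to 5.73 in the P12 supernatants. Pou1f1, which defines the growth hormone, prolactin and thyrotropin lineages, had 0 reads in every library.

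Tbx19, the factor that defines pituitary Pomc cells, had 24, 7 and 24 reads in the P60 pull-downs and 4, 12 and 6 in the P60 supernatants. Pax7, which marks melanotrophs and also brain regions outside the arcuate nucleus, had 130, 138 and 9 reads in the P60 pull-downs, 72, 75 and 72 in their supernatants and 0 in every P12 pull-down. P12 pull-down 2 held 178 reads of Prl (9.89 CPM), where every other library had 0 to 4. The 3 P60 pull-downs had the same order by Tbx19 (1.74, 0.373 and 2.22 CPM) as by Pomc, but not by Pax7, which was lowest where Pomc was highest. At P12 the pull-downs had 0, 30 and 0 reads of Tbx19, with none in pull-down 3, where Pomc was highest. The 6 hormone genes, however, had 0, 205 and 57 reads in P12 pull-downs 1, 2 and 3 (0, 11.4 and 2.88 CPM). The reads in pull-down 3 were of Tshb. In the P12 supernatants these genes summed to 0.505, 1.06 and 1.08 CPM. The same supernatants had 45, 28 and 20 reads of Tbx19 and 31, 48 and 40 of Pax7. By edgeR, Pax7 was higher at P60 in the pull-down (9.30 ± 2.37, adjusted p = 0.0366) and in the supernatant (1.56 ± 0.30, adjusted p = 0.000106). Tbx19 was lower at P60 in the supernatant (-1.5 ± 0.56, adjusted p = 0.0332). Of all genes, 1.89% were called higher in the pull-down, and 20.9% higher and 20.8% lower in the supernatant. The part of pituitary cells in the Pomc values was not tested beyond these levels.

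Markers of surrounding cells differed between fractions beside Pomc and GFP, in a direction that depended on the list and the age. At P60, 8 myelin genes summed to 1136 to 1214 CPM in the pull-downs and to 2212 to 2251 in the supernatants, and 7 astrocyte genes to 281 to 320 against 412 to 465. At P12 the myelin ranges overlapped (902 to 1215 against 1136 to 1259 CPM), and the astrocyte sum was higher in the pull-downs (484 to 619 against 384 to 453). Gfap (mean 377 against 169 CPM) and Aldh1l1 (39.9 against 20.0) carried that sum, while the means of the other 5 astrocyte genes were lower in the pull-down and the list median was -0.28 on the log2 scale, beside -0.27 over all genes. The AGRP/NPY markers summed to 23.8 to 40.8 against 55.1 to 66.3 CPM at P60 and to 53.2 to 85.3 against 75.7 to 86.6 at P12. Tanycyte and ependymal genes summed higher in the P12 pull-downs (113.5 to 153.9 against 80.5 to 84.1 CPM), and overlapped at P60 (79.0 to 90.3 against 67.9 to 80.75). Vim carried the P12 sum (mean 108 against 45.6 CPM), while the list median was -0.37. KNDY and vascular sums overlapped between fractions at both ages. Microglia and blood sums were lower in the P60 pull-downs (20.3 to 26.9 against 29.6 to 34.3, and 5.66 to 23.35 against 29.9 to 35.1). In the P60 supernatants all 8 myelin genes were higher than at P12, where 20.9% of all genes were. The part of these differences in the values of Pomc and GFP was not tested.

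GFP was placed at the Rosa26 locus, whose own transcript Gt(ROSA)26Sor is a non-coding RNA on chromosome 6 from 113067428 to 113077333, on the minus strand (mm10). It had 41, 58 and 16 reads in the P12 pull-downs and 79, 81 and 116 in the deeper P12 supernatants. In CPM the P12 pull-downs were 1.96-, 1.28- and 0.245-fold their supernatants, with a fitted log2 fold change of 0.17 ± 1.51 (edgeR, adjusted p = 0.967). At P60 it had 17, 1 and 11 reads in the pull-downs and 75, 90 and 56 in the supernatants. Its P60 log2 fold change of -2.64 ± 1.35 was not called (edgeR, adjusted p = 0.236), although the CPM of all 3 P60 pairs was lower in the pull-down, while GFP from the same locus was higher in all 3. This transcript overlaps the antisense gene Thumpd3, and the strand setting of the counting is not stated, so reads of the 2 cannot be told apart where they overlap. Neither Thumpd3 nor the neighbouring Setd5 was called in either enrichment, where 6.28% of all genes were called higher at P12 and 7.11% at P60. The only call among the 3 was Setd5 between the ages of the supernatant (-0.32 ± 0.07, edgeR adjusted p = 0.000394). In that comparison 20.9% of all genes were called higher and 20.8% lower.

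The genes beside Pomc did not share its pattern. Within 250 kb lie 6 other genes of the table. Efr3b, whose product anchors a lipid kinase at the membrane, lies 1.9 kb after Pomc. It was higher in the P60 pull-down by 0.82 ± 0.14 (edgeR, adjusted p = 3.56e-05), where 7.11% of all genes were called higher. Efr3b had 371, 359 and 341 CPM in the P60 supernatants and 595, 540 and 485 CPM in the pull-downs. It was not called at P12 or between the ages in either fraction. Dnmt3a, a DNA methyltransferase 40.5 kb before Pomc, moved against it with age: the pull-downs held 1210, 1053 and 1016 CPM at P12 and 198, 193 and 185 CPM at P60.

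Dnmt3a fell by 2.68 ± 0.19 in the pull-down (edgeR, adjusted p = 1.02e-06, where 3.11% of genes were called lower) and by 2.30 ± 0.07 in the supernatant (adjusted p = 4.16e-21, where 20.8% were). It was also higher in the P12 pull-down by 0.66 ± 0.12 (adjusted p = 0.00162), where 6.28% of all genes were called higher. That call was lost with scaling by library size alone (0.31, adjusted p = 0.106) and with length-dependent offsets (0.33, adjusted p = 0.292). Dtnb and Adcy3 rose slightly in the supernatant with age, by 0.25 (edgeR, adjusted p = 0.0103) and 0.31 (adjusted p = 0.0137, and 0.0681 without P60 supernatant 1), where 20.9% of all genes were called higher. Dnajc27 and Cenpo were called in none of the 5 comparisons.

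**Figure D5:**
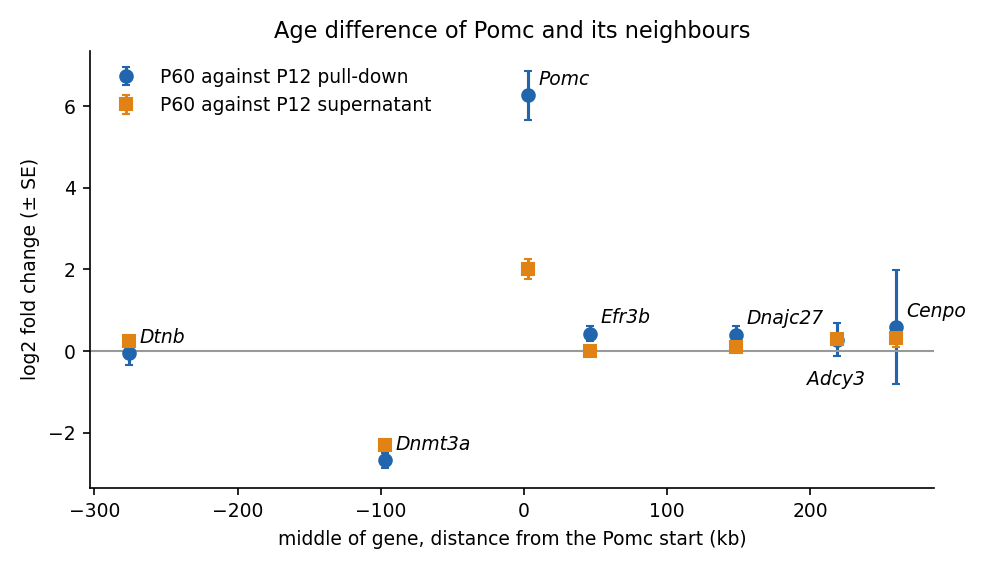
Log2 fold change of P60 against P12 (± SE derived from the edgeR F statistic) for Pomc and the 6 table genes within 250 kb, plotted at the distance of each gene's middle from the Pomc start. Circles are pull-downs and squares supernatants. Pomc stands at 6.27 and 2.01, Dnmt3a at -2.68 and -2.30, and each of the other 5 below 1 in both fractions.

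Across the 12 libraries, the genes whose log2(CPM + 0.5) followed Pomc most closely among 15311 were Tbx3 (Pearson r = 0.95), Lonp1 (0.941), Pi16 (0.928), Klhdc8b (0.927) and Cartpt (0.926), followed by Slc4a8, Rgag4, Ubr3, Lgals3bp and Atp2a2 at 0.915 or more. For GFP they were Asb4 (0.958), D330045A20Rik (0.933), Stat3 (0.933), Efr3b (0.915) and Snap47 (0.911), followed by Gad1, Ache, Atg7, Cd44 and Vgf at 0.881 or more. The 10 genes nearest Pomc and the 10 nearest GFP shared 0 members. GFP was 56th in the order of likeness to Pomc (r = 0.837), and Pomc was 33rd in the order of likeness to GFP. The libraries fall into 4 groups, so these values describe mostly how the groups differ, and they carry no test.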

How the data were processed

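RNA of TRAP pull-downs and supernatants from the arcuate nucleus went through ribosomal depletion and a stranded total RNA kit. The labels also name polyA RNA, a difference that the sources used here do not settle. Per the labels, the authors used FastQC, used TopHat2 2.0.13 with Bowtie2 2.2.1 to align reads to the mm10 genome, and HTSeq to count them. How GFP was added to the reference and the strand setting are not stated. The table deposited by the authors holds raw counts of reads per gene, not normalized, for 19878 genes in 12 libraries (635 never counted).

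The whole table was used, and the 12 single-sample files repeat its columns. CPM is the count divided by the library total. Tests were run in edgeR 4.0.16 under R 4.3.3 (TMM, filterByExpr, quasi-likelihood, Benjamini-Hochberg adjusted p over all genes tested, threshold 0.05). Pull-down and supernatant were compared within each age with the replicate number as a block, as in the paired model of the study. Their difference was tested over all 12 libraries and ages were compared within a fraction without a block. Deviations of same-numbered libraries correlated by 0.0129 to 0.0465 at P60 and 0.0206 to 0.0472 at P12, each below 0.1, and the pairs are therefore taken from the study's design alone. No 2 libraries of a group were duplicates. DESeq2 1.42.0, library size alone, no filter, no block, length-dependent offsets, 1 fit for all libraries and leaving out each replicate were tried, and the code was tested on simulated data. Read ratios were compared with exact permutation tests, two-sided (SciPy 1.17.1).

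Genes named beside Pomc and GFP are members of gene lists, genes within 250 kb of Pomc, and the 10 genes nearest each by Pearson r. Within a list, called members were named first by size, up to 4 per direction, and the rest are counted. One listed regulator is not reported here. The members and lists were chosen with earlier results of these data known. Exonic length (98.3% of genes) is from GENCODE, and neighbours and the promoter are from RefSeq, matched for Pomc alone.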

Additional observations from a re-analysis of the deposited data

Results flagged for a closer look

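The enrichment of 6 genes differed between P60 and P12 by the test of the difference itself (edgeR over 12 libraries, P60 less P12, log2). The values were 4.80 for Pomc, 2.08 for GFP, 4.75 for Cartpt, 6.40 for Prdm12, 2.36 for Tbx3 and 3.69 for Gal, each with adjusted p under 0.05. Within P12 alone, only Pomc and GFP of the 6 were called higher in the pull-down. Prdm12 (-2.60), Gal (-1.18) and Cartpt (-0.23) stood below 0 there, and Tbx3 stood at 0.51. Of the 15311 genes tested, 0.438% were called in this direction. Each of the 6 kept its direction and its call when any 1 pair of libraries was left out. Without P12 pair 3 the value for Pomc was 5.65.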

How the results depend on the processing

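Pomc and GFP kept their direction in all 5 comparisons under every alternative. The only calls of theirs that were lost were at P12. There Pomc stood at 1.66 (log2) with library size alone (adjusted p = 0.0577), at 2.56 without the replicate block (0.0702) and at 1.26 to 2.69 with 1 pair left out. GFP stood at 0.80 with library size alone (0.0834) and at 1.07 to 1.31 with 1 pair left out, and both calls were lost without pair 3. With length-dependent offsets, which need a gene length and so exclude GFP, Pomc was at 2.79 at P12 (adjusted p = 0.000498) and at 4.07 in the difference between ages. With 1 replicate left out, the ratio of Pomc to GFP kept its sign in every comparison, from 0.19 to 1.60 for the P12 pairs. Library size alone moved the median of all genes by -0.35 at P12, -0.22 at P60, 0.16 in the difference, 0.17 between the pull-downs and 0.04 between the supernatants. Without the replicate block no other call of Pomc or GFP changed.

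Counts of called genes moved more. At P12, 933 genes were higher and 289 lower, and library size alone gave 534 and 1390. The lower genes numbered 567 by DESeq2, 472 without the block, 183 with length-dependent offsets and 657 with all 12 libraries in 1 fit. At P60, 1027 were higher and 655 lower, library size alone gave 614 and 1790, 1 fit of 12 libraries 610 and 242, and leaving out 1 pair 563 to 1154 and 275 to 683. In the difference between ages 67 were higher and 105 lower. DESeq2 gave 223 and 226, library size alone 115 and 65, no filter 161 and 202, length-dependent offsets 32 higher, and leaving out 1 pair 22 to 151 and 42 to 135. Between pull-downs 256 were higher and 422 lower. DESeq2 gave 507 and 678, library size alone 445 and 264, no filter 445 and 653, and leaving out 1 library 86 to 353 and 161 to 463. The cause of these shifts was not tested. P12 pull-down 1, with 62 Pomc reads, limits what can be said of the first P12 pair.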
